A study of Mus musculus with 61 samples.

Results

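The contrast between dopamine receptor D2 and D1 neurons in the effect of a past morphine course was examined in 32 of the 61 libraries of the series. Members were all libraries of 4 groups of sorted nuclei from mouse nucleus accumbens, a ventral striatal region of reward and motivation. The difference between morphine-experienced and saline-experienced mice was taken within each cell type, and the D1 difference was then subtracted from the D2 difference. A positive log2 contrast therefore means that the ratio of morphine to saline history was larger in D2 nuclei.

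The mice were males that carried LSL-eGFP::L10a, a reporter that Cre switches on and that joins green fluorescent protein to ribosomal protein L10a, together with D1-Cre or D2-Cre. The reporter therefore marks cells in which the driver was ever active, and nuclei were sorted from frozen tissue punches by fluorescence. Saline (first letter S) or morphine (first letter M) was given daily over 15 days, and 30 days of withdrawal in the home cage followed. All mice of these 4 groups then received a saline challenge (second letter S) and were killed 1 h later. D1 SS held 8 libraries, D1 MS 9, D2 SS 7 and D2 MS 8. The labels list doses without assigning them to groups, and do not say whether each library came from a separate mouse, so p-values measure the spread between libraries.

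Nucleus accumbens projection neurons fall into a class with the D1 receptor, which raises cyclic AMP, and a class with the D2 receptor, which lowers it. D1 neurons also make dynorphin and substance P, while D2 neurons make enkephalin and carry the adenosine receptor gene Adora2a. Opioids act on accumbens circuits directly through opioid receptors and indirectly by releasing dopamine, and gene expression in both classes is known to shift with drug history.

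The receptor genes matched the labels of the sort in each of the 4 groups. Drd1 ran from 33.1 to 269.7 scaled CPM (counts relative to library size, with a trimmed-mean scaling factor) in D1 SS and from 36.7 to 165.7 in D1 MS. In D2 SS it ran from 5.37 to 11.4 and in D2 MS from 8.54 to 27.3, below every D1 library. Drd2 ran from 48.1 to 270.1 in D1 SS and from 50.0 to 86.3 in D1 MS, and every D2 library lay higher, from 374.5 to 2405.

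Libraries held 13150000 to 26110000 counts (rounded to 4 digits). Olfactory and vomeronasal receptor genes, which belong to sensory neurons of the nose, gave each library a background density of counts. Spread over all genes by length, it would account for 58.1 ± 24.4% of counts in D1 SS (SD, n = 8), 63.4 ± 11.4% in D1 MS (SD, n = 9), 67.0 ± 6.53% in D2 SS (SD, n = 7) and 57.0 ± 9.49% in D2 MS (SD, n = 8). D1 SS replicate 1 stood apart at 7.46%, with a scaling factor of 0.388, and D1 MS replicate 2 had 36.4%. With that library left out, the D1 SS mean was 65.3 ± 14.3% (SD, n = 7). The D2 minus D1 contrast of the share was -15.3 percentage points (exact two-sided permutation p = 0.134), and -8.07 without that library (exact p = 0.318). The D2 difference alone was -10.0 points (exact p = 0.0407, 0.173 after Benjamini-Hochberg adjustment). The background was thus lower after morphine in the cell type where most values below were higher, and its part in them was not tested. For most lists and most named genes, a fit with the background density as a covariate, without D1 SS replicate 1, is given beside the value.

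**Figure D1:**
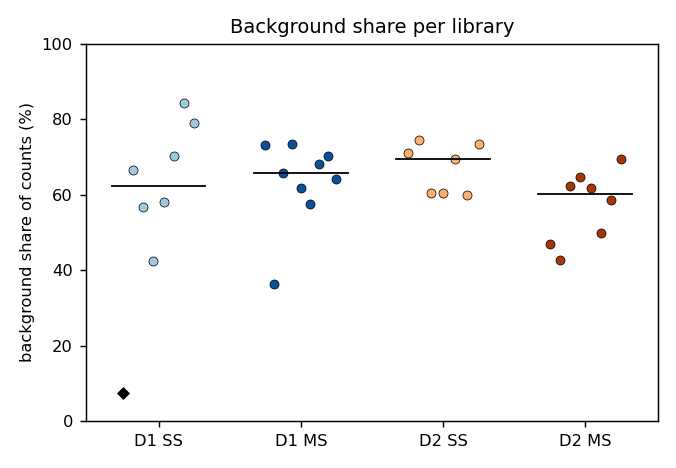
Background share of counts per library (percent, y axis) in the 4 groups, with a bar at each group's median and a diamond for D1 SS replicate 1. That library sits at 7.46%, and 4 of 8 D2 MS libraries lie below the lowest D2 SS library.

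No gene passed the test of the contrast. With all libraries, edgeR's quasi-likelihood test called 0 of 42870 genes at an adjusted p under 0.05 (0.0% called), and the smallest adjusted p was 0.149. At an unadjusted p under 0.05, 7979 genes were higher (18.6%) and 2592 lower (6.05%). When D1 SS replicate 1 was left out, edgeR again called 0 of 42833 genes, with a smallest adjusted p of 0.641. Unadjusted, 591 genes were then higher (1.38%) and 1965 lower (4.59%). The morphine difference within D1 and that within D2 also had 0 called genes in edgeR. Leaving out any 1 of D1 SS replicates 3 to 7 gave 1 call in D1, Slc17a7, a vesicular glutamate transporter gene of cortical neurons (edgeR adjusted p 0.0244 to 0.0434). Its D1 difference was -2.36 ± 0.46 with all libraries and -0.40 ± 0.25 without D1 SS replicate 1 (SE), and it was named after its values were seen. Other methods gave other counts with all libraries. DESeq2 called 5200 genes, 4743 of them higher, and limma voom with sample quality weights called 7. When it was left out, these 2 methods called 0 and 2. Leaving out D1 MS replicate 2 alone gave 5057 calls in edgeR, 4688 of them higher, whereas leaving out both libraries gave 0. Every gene below is given with its size and error and did not pass in edgeR with all libraries or without D1 SS replicate 1.

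Genes of the D2 class had among the largest contrasts of the lists examined, mostly through higher values in D2 MS. Members differed in how far they set D2 nuclei apart in the SS groups. Median CPM in D2 SS and in D1 SS without replicate 1 was 568.0 and 72.8 for Drd2. It was 9.81 and 8.99 for Sp9, and 283.3 and 238.9 for Grik3. Of 9 tested D2 class markers, once D1 SS replicate 1 was left out, 7 were higher, 6 of them at an unadjusted p under 0.05, with a median log2 of 0.76. Over all 42833 tested genes the median was -0.02. Over the 11535 that lay at least 2 times above background it was 0.19, but -0.06 when only these genes were scaled and fitted. In the fit of all genes, 66.2% of these 11535 were higher, 224 of them at an unadjusted p under 0.05. The D2 class median was 0.62 for morphine history in D2 nuclei (8 of 9 higher) and -0.15 in D1 nuclei (2 of 9 higher). Among genes at least 2 times above background, 65.5% were higher in D2 nuclei (median 0.22) and 68.2% in D1 nuclei (median 0.05). With the background as a covariate the median of the contrast was 0.56, and with all libraries it was 1.02. In bulk samples, a change in the number of cells of a type and one in RNA per cell cannot be told apart.

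For the D2 class genes found in the RefSeq promoter table (GRCm38.p6), the 250 bases before the annotated start are shown for the 4 with the largest contrasts, as these genes had values in one direction. Drd2 lies at chr9:49340153-49340402 on the plus strand, Gpr6 at chr10:41072291-41072540 on the minus strand, Sp9 at chr2:73271676-73271925 on the plus strand and Grik3 at chr4:125490446-125490695 on the plus strand. Capitals mark a full cyclic AMP response element, TGACGTCA, which was searched on both strands along with its core TGACG and the AP-1 site TGANTCA.
Drd2: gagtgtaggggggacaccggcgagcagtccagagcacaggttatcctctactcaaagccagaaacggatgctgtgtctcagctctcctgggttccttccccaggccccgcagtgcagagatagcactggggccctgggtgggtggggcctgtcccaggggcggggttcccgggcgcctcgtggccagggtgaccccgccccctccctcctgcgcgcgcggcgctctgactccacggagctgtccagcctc
Gpr6: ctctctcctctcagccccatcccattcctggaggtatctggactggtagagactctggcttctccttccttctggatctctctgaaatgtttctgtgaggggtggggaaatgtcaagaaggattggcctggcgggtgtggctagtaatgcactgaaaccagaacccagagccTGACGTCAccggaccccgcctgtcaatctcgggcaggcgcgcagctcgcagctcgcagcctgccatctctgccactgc
Sp9: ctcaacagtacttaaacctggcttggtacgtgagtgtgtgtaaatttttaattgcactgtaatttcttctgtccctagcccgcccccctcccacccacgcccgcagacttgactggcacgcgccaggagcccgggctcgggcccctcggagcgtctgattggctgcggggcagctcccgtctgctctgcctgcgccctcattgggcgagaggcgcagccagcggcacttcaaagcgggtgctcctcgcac
Grik3: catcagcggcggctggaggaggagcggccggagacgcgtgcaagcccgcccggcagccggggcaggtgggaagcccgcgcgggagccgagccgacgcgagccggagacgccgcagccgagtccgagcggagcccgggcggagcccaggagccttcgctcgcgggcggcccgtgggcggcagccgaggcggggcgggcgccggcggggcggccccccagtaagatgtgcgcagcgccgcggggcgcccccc

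One of these 4 windows, that of Gpr6, held the full element, which also contains the core on each strand. Of 32851 promoter windows of this length, 508 (1.55%) held the full element, 5836 (17.77%) the core and 2217 (6.75%) the AP-1 site. The Drd2, Sp9 and Grik3 windows held none of these letters. These matches describe the sequence only. Adora2a, Penk and Ankk1 were not matched in the table.

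Drd2 (chromosome 9, 49340627 to 49408177 on mm10) encodes the receptor that defines the class. Its lowest, median and highest values were 374.5, 568.0 and 862.9 CPM in D2 SS and 432.4, 926.4 and 2405 in D2 MS. In D1 SS they were 48.1, 77.8 and 270.1, and in D1 MS 50.0, 57.3 and 86.3. The D2 groups overlapped, with 4 of 8 D2 MS libraries above the highest D2 SS library. These were replicates 1, 2, 6 and 7, with background shares of 46.8%, 42.6%, 49.8% and 58.7%. They are the same 4 that lay below the lowest D2 SS share, 59.9%, and the part of background here was not tested. The highest D1 SS value was that of D1 SS replicate 1. The contrast was 1.62 ± 0.45 (SE, edgeR adjusted p = 0.149) and 1.24 ± 0.43 without that library (adjusted p = 0.647), and 0.72 with the covariate as well.

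Adora2a (chromosome 10, 75316877 to 75334784) encodes an adenosine receptor that opposes D2 signalling. Its lowest, median and highest CPM were 44.4, 54.3 and 97.0 in D2 SS and 55.8, 101.2 and 187.4 in D2 MS. In D1 SS without replicate 1 they were 18.6, 28.4 and 47.6, and in D1 MS 16.6, 21.5 and 40.7. The groups of each cell type overlapped, with 4 of 8 D2 MS libraries above every D2 SS library, the same 4 as for Drd2. The contrast was 1.39 ± 0.38 with all libraries (SE, edgeR adjusted p = 0.149) and 1.17 ± 0.37 without D1 SS replicate 1 (adjusted p = 0.647). It was 0.80 when the covariate was added to the latter.

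Penk (chromosome 4, 4133531 to 4138819), the enkephalin precursor, lay at 69.5 times background. Its D2 SS values were 129.4, 195.7 and 302.9 CPM (lowest, median, highest) and its D2 MS values 147.3, 353.3 and 513.4. D1 SS without replicate 1 had 35.0, 82.2 and 181.9, and D1 MS 28.7, 64.3 and 209.4. Overlap was wide in D1, and 5 of 8 D2 MS libraries exceeded every D2 SS library. The contrast was 0.89 ± 0.52 without D1 SS replicate 1 (SE, edgeR adjusted p = 0.647), and 0.56 with the covariate.

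Sp9 (chromosome 2, 73271925 to 73284706) encodes a transcription factor of D2 neurons and lay at 1.69 times background. It had 8.29, 9.81 and 12.7 CPM in D2 SS and 9.75, 15.3 and 21.5 in D2 MS. D1 SS without replicate 1 had 6.43, 8.99 and 10.6 and D1 MS 5.98, 7.94 and 9.24. In D2, 6 of 8 MS libraries exceeded every SS library, and in D1 3 of 9 MS libraries lay below every SS library. Its contrast changed little with D1 SS replicate 1, at 0.83 ± 0.23 with all libraries and 0.76 ± 0.23 without it (SE, edgeR adjusted p = 0.149 and 0.647). The covariate then gave 0.58.

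Ankk1 (chromosome 9, 49415194 to 49427021) is a kinase gene and a neighbour of Drd2, which ends at 49408177. Whether its counts arise apart from Drd2 transcripts was not tested. Ankk1 had 33.4, 50.1 and 59.6 CPM in D2 SS and 37.9, 55.2 and 108.4 in D2 MS. The D2 groups overlapped, with 3 of 8 MS libraries above the SS range. Its contrast was 0.69 ± 0.25 without D1 SS replicate 1 (SE, edgeR adjusted p = 0.647) and 0.43 with the covariate. Gpr6, an orphan receptor gene, had 0.94 ± 0.44 (SE, edgeR adjusted p = 0.647). Ttc12 and Reln, the other members tested, had -0.20 ± 0.12 and -0.02 ± 0.09 (SE).

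Grik3 (chromosome 4, 125490700 to 125714173) encodes a kainate-type glutamate receptor subunit. It had 267.8, 283.3 and 381.3 CPM in D2 SS and 301.3, 414.6 and 790.9 in D2 MS, with 6 of 8 MS libraries above the SS range. The D1 SS values were 176.7, 241.6 and 2297, the last from replicate 1, and those of D1 MS 189.0, 207.0 and 253.2. That library decided much of the size, since the contrast was 1.83 ± 0.44 with it and 0.76 ± 0.24 without it (SE, edgeR adjusted p = 0.149 and 0.647). With the covariate it was 0.52.

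**Figure D2:**
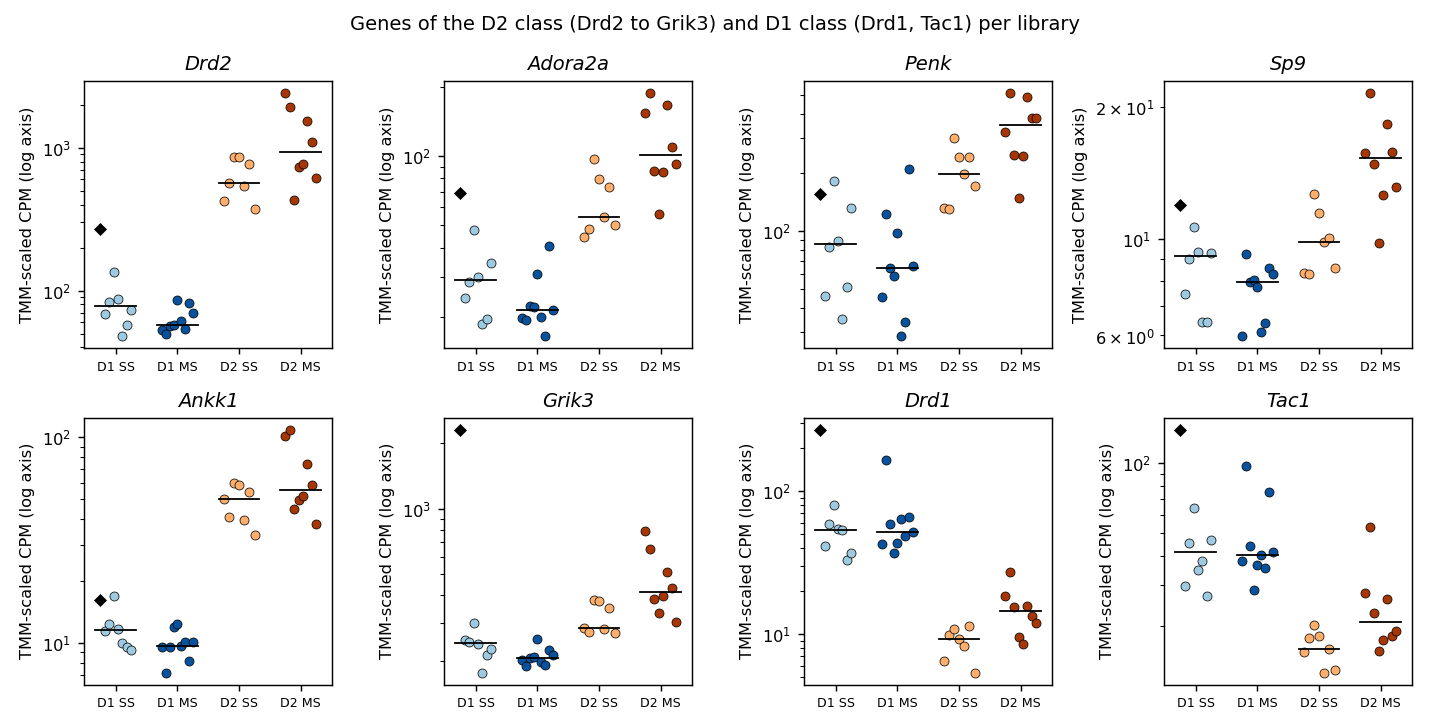
Scaled CPM (log axis) of D2 class genes (Drd2 to Grik3) and of Drd1 and Tac1 per library, with a bar at the group median and a diamond for D1 SS replicate 1. In D2, 4 of 8 MS libraries lie above every SS library for Drd2 and 6 of 8 for Sp9 and Grik3, while D1 MS overlaps D1 SS.

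D1 class genes had contrasts of both signs. Of 9 tested, 4 were higher in the contrast and 5 lower without D1 SS replicate 1, with a median of -0.08 and 0 at an unadjusted p under 0.05. In the same fit 47.4% of all genes tested were higher, and 66.2% of those at least 2 times above background. Drd1 had 0.44 ± 0.41 and Tac1, the substance P precursor, 0.38 ± 0.38 (SE). Pdyn, the dynorphin precursor, had -0.18 ± 0.36 without that library and 0.12 ± 0.38 with it, so its sign turned (SE). Drd1 itself had medians of 9.20 CPM in D2 SS and 14.5 in D2 MS, with 6 of 8 MS libraries above every SS library. Its D1 medians were 53.3 in SS without replicate 1 and 51.7 in MS.

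Genes of the mitochondrial genome had the largest list median, through a difference in D2 nuclei. They encode subunits of the respiratory chain and are transcribed inside mitochondria, outside the nucleus. Of 13 listed, 7 were tested. With D1 SS replicate 1 left out, all 7 were higher in the contrast, 6 of them at an unadjusted p under 0.05, and the median was 1.20. Among 11535 genes at least 2 times above background, 66.2% were higher in that fit, 224 of them at an unadjusted p under 0.05. The median of the mitochondrial list was 1.35 with all libraries and 1.18 with the covariate. In D2 SS mt-Co1 (5328 to 6872 of the mitochondrial genome) had 5.33, 6.32 and 10.3 CPM, and in D2 MS 8.31, 18.2 and 24.1. D1 SS without replicate 1 had 6.01, 11.3 and 14.0 and D1 MS 6.58, 11.3 and 16.5. The medians in D1 were alike, and in D2 6 of 8 MS libraries lay above every SS library. Its contrast was 1.26 ± 0.41 (SE, edgeR adjusted p = 0.647). For mt-Nd4 (10167 to 11544) it was 1.29 ± 0.45 (SE, adjusted p = 0.647), and 7 of 8 D2 MS libraries exceeded every D2 SS library.

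As a share of all counts, mitochondrial genes had medians of 0.0195% in D1 SS, 0.0172% in D1 MS, 0.0128% in D2 SS and 0.0258% in D2 MS. D2 SS ran from 0.00894% to 0.0207% and D2 MS from 0.0136% to 0.0395%, so the groups overlapped in part. The contrast was 0.0129 percentage points (exact two-sided permutation p = 0.0233) and 0.0126 without D1 SS replicate 1 (exact p = 0.0301). After Benjamini-Hochberg adjustment over 20 tests of library measures, both stood at 0.173. The D2 difference was 0.0131 points (exact p = 0.00513), or 0.103 adjusted over those 20 tests, which is over the threshold. The set of tests was settled after values were seen. Over an earlier set of 18, which counted each D2 test once per library set, the adjusted value was 0.0462, and over 15 without those repeats 0.077. The contrast itself had 0.122 and 0.15 over these sets, so it passed in none. Taken over counts above background instead, the contrast was 0.0268 points (exact p = 0.166) and 0.0320 without D1 SS replicate 1 (exact p = 0.102). The source of these counts in sorted nuclei was not tested.

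**Figure D3:**
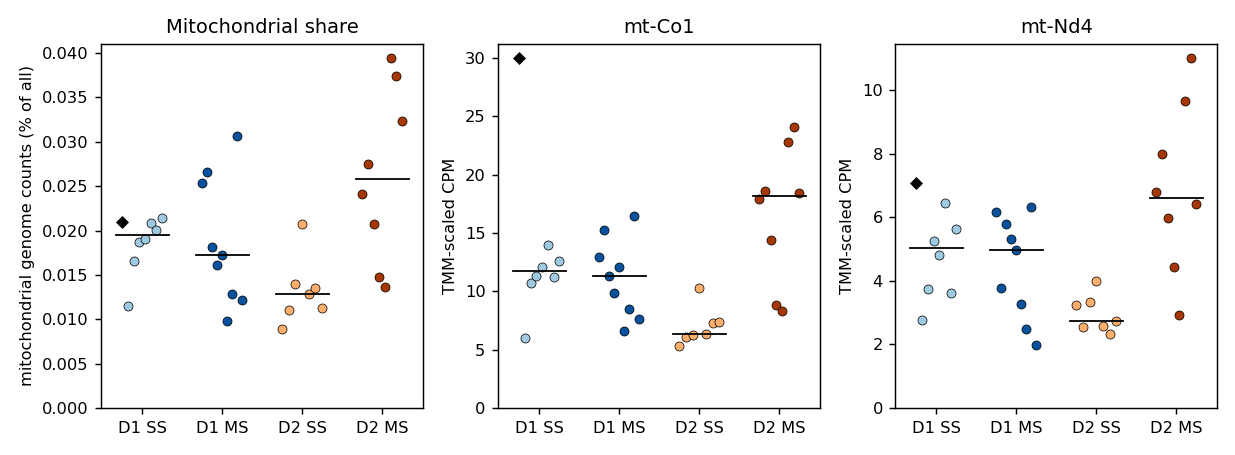
Share of counts from the mitochondrial genome (percent) and scaled CPM of mt-Co1 and mt-Nd4 per library, with medians as bars and D1 SS replicate 1 as a diamond. The D2 MS median of the share is 0.0258% against 0.0128% in D2 SS, and the D1 groups overlap.

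Genes of dopamine and cyclic AMP signalling were nearly all higher, beside 7634 of 11535 genes over 2 times background. Of 32 tested, 32 were higher with all libraries (median 0.98) and 31 without D1 SS replicate 1 (median 0.48, 3 at an unadjusted p under 0.05). With the covariate the median was 0.15, against 0.07 over all genes at least 2 times above background. Pde10a, a striatal phosphodiesterase, had medians of 849.6 CPM in D2 SS, 1239 in D2 MS, 839.7 in D1 SS without replicate 1 and 885.2 in D1 MS. Replicate 1 of D1 SS had 10440, and the contrast was 2.14 ± 0.61 with it and 0.99 ± 0.48 without it (SE, edgeR adjusted p = 0.149 and 0.647). The covariate brought the latter to 0.40. Pde4b, another phosphodiesterase gene, had 0.68 ± 0.32 (0.33 with the covariate) and Rasgrp2, an activator of the small GTPase Rap, 1.08 ± 0.53 without it (SE). Adcy5, the main adenylyl cyclase of the striatum, had 0.90 ± 0.57 and Ppp1r1b, which encodes DARPP-32, 0.80 ± 0.53 (SE).

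Opioid receptor and peptide genes had contrasts of both signs. Of 8 tested, 5 were higher and 3 lower without D1 SS replicate 1, with a median of 0.16. Among 11535 genes at least 2 times above background, 66.2% were higher (median 0.19), so the count does not set these genes apart. Of those 11535, 333 were lower at an unadjusted p under 0.05, and so was 1 of the 8 opioid genes. That was Pomc, the precursor of beta-endorphin, at -0.43 ± 0.14 (SE, edgeR adjusted p = 0.647) and only 2.04 times background. Oprm1, the mu opioid receptor gene through which morphine acts, had medians of 131.9 CPM in D2 SS and 133.6 in D2 MS, and 134.6 and 130.6 in D1 without replicate 1. Its contrast was 0.03 ± 0.06 (SE). It lay at 1.03 times background, so its mean density of counts was near that of the receptor genes of the nose. D1 SS replicate 1, the library with the lowest background share, had 186.8 CPM. The kappa receptor gene Oprk1 had 0.47 ± 0.27 and the delta receptor gene Oprd1 0.28 ± 0.17 (SE).

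Immediate early genes, which neuronal activity induces, were higher for 24 of 32 without D1 SS replicate 1, with a median of 0.30. Among genes at least 2 times above background the share higher was 66.2%, so the count alone does not set these genes apart. At an unadjusted p under 0.05, 3 were higher and 1 lower, and the covariate brought the median to 0.14. Npas4 had 0.96 ± 0.47 and Nr4a1 0.87 ± 0.39, both transcription factor genes, and Egr1 0.97 ± 0.48 (SE). Sik1, a kinase gene induced by cyclic AMP, had 0.49 ± 0.20 and Atf3, a stress-induced factor at 1.50 times background, -0.22 ± 0.09 (SE). Fos had medians of 3.93 CPM in D2 SS and 4.40 in D2 MS, 4.61 in D1 SS without replicate 1 and 4.61 in D1 MS. Its contrast was 0.20 ± 0.26 (SE), well within its error.

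Several other neuronal gene groups had positive medians that were smaller without D1 SS replicate 1 and smaller again with the covariate. These medians rest on scaling over all tested genes. Without D1 SS replicate 1, genes at least 2 times above background had a median of 0.19 under that scaling. Scaled and fitted alone, the same genes had -0.06, and list medians were not taken in that fit. All 18 calcium channel genes were higher with all libraries (median 1.15) and without D1 SS replicate 1 (0.48), beside the 66.2% higher over 2 times background in the latter fit. The covariate left a median of 0.17 with 15 of 18 higher, and 1 of 18 had an unadjusted p under 0.05 without that library. Synaptic vesicle genes went from 1.14 to 0.44 and 0.13, with 26 of 26 higher in the first and second case and 22 in the third, and 0 at an unadjusted p under 0.05 in the second. Potassium and sodium channel genes went from 1.00 to 0.38 and 0.12, and postsynaptic scaffolds from 1.29 to 0.55 and 0.20. Circadian clock genes had 1.14, 0.55 and 0.20, with Per2, a clock repressor, at 0.64 ± 0.28 and Npas2, a clock activator, at 0.62 ± 0.31 without that library (SE). Nuclear-encoded genes of oxidative phosphorylation had 0.71, 0.34 and 0.15, well under the mitochondrially encoded ones, and Ndufa5 had 0.38 ± 0.17 (SE). The D2 class and the mitochondrial list were those that kept a median over 0.5 with the covariate.

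The remaining lists, apart from interferon-responsive genes and markers of other cell types, also had positive medians. Leaving out D1 SS replicate 1, the medians were 0.32 for GABA receptors and synthesis, 0.31 for ionotropic and 0.21 for metabotropic glutamate receptors and 0.14 for synaptic adhesion. Outside neuronal function, chromatin regulators had 0.32, heat shock genes 0.40, cytosolic ribosomal proteins 0.26 and glucocorticoid-responsive genes 0.13. Over genes at least 2 times above background the median was 0.19, above those of synaptic adhesion and glucocorticoid-responsive genes. With the covariate, the medians of these lists ran from 0.019 (glucocorticoid-responsive) to 0.185 (heat shock), against 0.07 over genes at least 2 times above background. Without D1 SS replicate 1, Lrrtm2, a synaptic adhesion gene, had 0.71 ± 0.30 and Cacna2d2, a calcium channel subunit gene, 0.62 ± 0.26 (SE). Grip1, a scaffold gene, had 0.24 ± 0.11 and Kdm4c, a histone demethylase gene, 0.22 ± 0.11 (SE). In this order, they lay at 1.33, 2.31, 1.83 and 1.61 times background. With the covariate they had 0.475, 0.346, 0.154 and 0.146. Gabra5, a GABA receptor subunit gene at 0.80 times background, had -0.17 ± 0.07, and Cdh13, a cadherin gene at 1.66 times background, -0.14 ± 0.07 (SE).

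**Figure D4:**
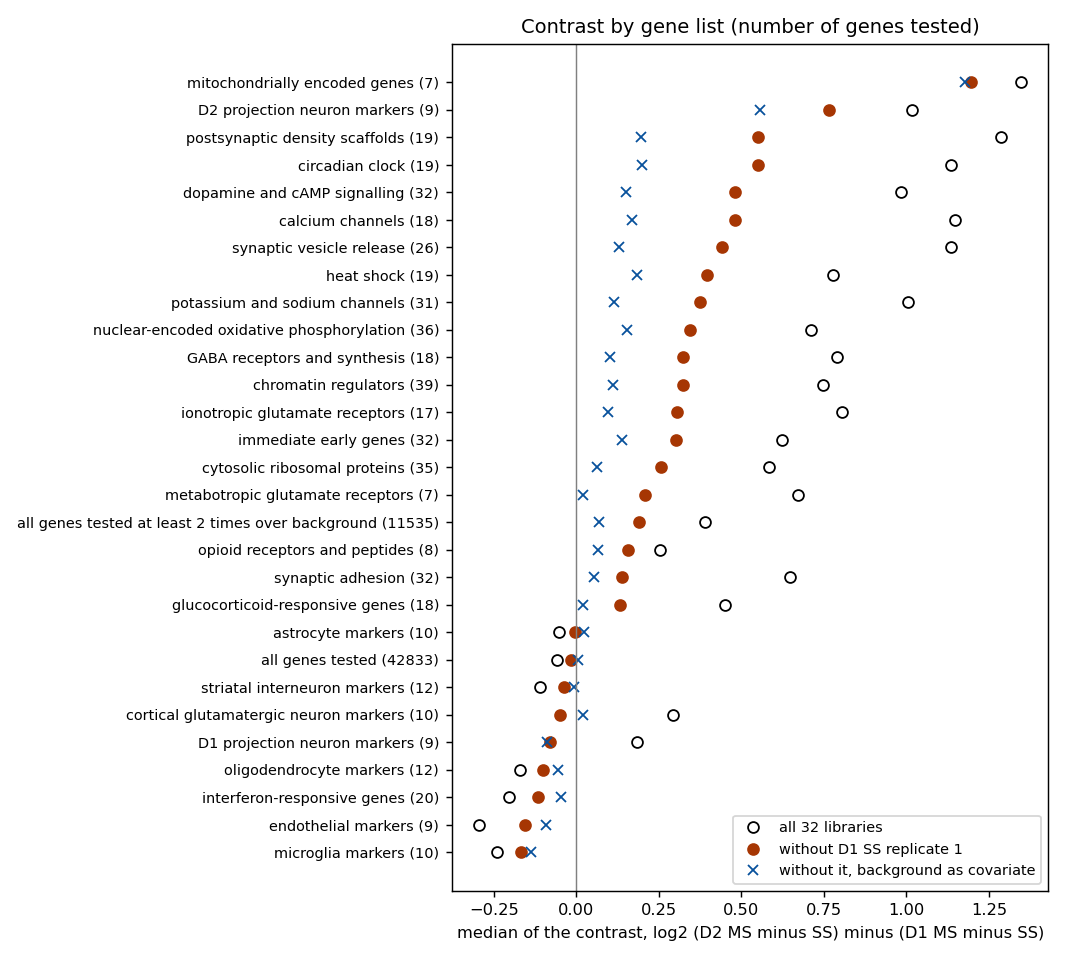
Median log2 contrast of each gene list (x axis), with the number of genes tested in parentheses, for all 32 libraries, without D1 SS replicate 1, and without it with the background as covariate. The mitochondrial and D2 class lists keep medians of 1.18 and 0.56 with the covariate, and the other lists lie at 0.20 or below.

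Markers of other cell types were mostly at background. Of the members tested, 0 of 10 microglial, 0 of 9 endothelial, 1 of 10 astrocyte, 2 of 12 oligodendrocyte, 1 of 10 cortical and 2 of 12 interneuron markers lay at least 2 times above it. Medians without D1 SS replicate 1 were -0.17 for microglia, -0.16 for endothelium, 0.00 for astrocytes, -0.10 for oligodendrocytes, -0.05 for cortical neurons and -0.04 for interneurons. Interferon-responsive genes, 2 of 20 over that level, had -0.12. Astrocyte markers were split, with 5 higher and 5 lower. Lower were 9 of 10 microglial, 8 of 9 endothelial and 17 of 20 interferon-responsive genes, while 47.4% of all genes tested were higher. Summed CPM, here without the scaling factor, ran from 178.0 to 208.9 in D2 SS and from 130.3 to 188.7 in D2 MS for microglial markers. For endothelial markers it ran from 461.9 to 556.9 and from 312.1 to 506.6. No marker of these 6 lists was at 0 in all libraries of a group. Named members were Trem2 of microglia at -0.45 ± 0.18, Pecam1 of endothelium at -0.27 ± 0.11, Aldh1l1 of astrocytes at -0.23 ± 0.10, and the interferon-induced Oasl2 at -0.38 ± 0.14 and Ifit2 at -0.22 ± 0.10 (SE). These lie at 1.20 to 1.76 times background. With the covariate they kept their sign, at -0.38 for Trem2, -0.20 for Pecam1, -0.17 for Aldh1l1, -0.32 for Oasl2 and -0.15 for Ifit2.

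The named genes with the smallest p on the lower side had low levels. Insl6, an insulin-like peptide gene, had 3.88, 5.26 and 7.07 CPM in D2 SS and 2.99, 3.74 and 4.61 in D2 MS, with 5 of 8 MS libraries below every SS library. In D1 SS without replicate 1 it had 3.09, 3.94 and 4.82 and in D1 MS 3.40, 4.06 and 6.18. The contrast was -0.59 ± 0.18 (SE, edgeR adjusted p = 0.647). Lrrc23, a cilium-associated gene, had -0.42 ± 0.14, and Cd3g, a T cell receptor component gene, -0.42 ± 0.15 (SE). Il20, a cytokine gene, had -0.48 ± 0.17, Ccl5, a chemokine gene, -0.46 ± 0.16, and Foxi1, a forkhead factor gene, -0.43 ± 0.16 (SE). Sec61b, of the protein translocation channel, had -0.28 ± 0.11 and Cckar, a cholecystokinin receptor gene, -0.35 ± 0.13 (SE). These genes and Pomc lay at 2.01 to 3.38 times background, where 2 was the limit for naming a gene. With the covariate all kept their sign, Insl6 at -0.56, Lrrc23 at -0.43, Il20 at -0.48, Ccl5 at -0.44 and Sec61b at -0.29. For Ccl5 the difference in D1, 0.28, was larger than that in D2, -0.18.

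On the higher side, genes outside the D2 class included Ntrk2, which encodes the BDNF receptor TrkB. Its medians were 379.1 CPM in D2 SS, 508.3 in D2 MS, 379.9 in D1 SS without replicate 1 and 428.6 in D1 MS, and replicate 1 of D1 SS had 4065. With 5 of 8 D2 MS libraries above every D2 SS library, the contrast was 0.82 ± 0.32 without replicate 1 and 1.85 ± 0.48 with it (SE, edgeR adjusted p = 0.647 and 0.149). Adding the covariate to the fit without replicate 1 gave 0.42. Ivns1abp, a kelch-family gene, had 1.07 ± 0.46 without that library (SE) and 0.57 with the covariate. B3gat1, a glucuronyltransferase gene of the HNK-1 epitope, had 0.83 ± 0.37 (SE) and 0.52. Mterf1b, a mitochondrial transcription termination factor gene, had 0.51 ± 0.16, Rbm8a, an exon junction gene, 0.53 ± 0.19, and Tmem246, a membrane protein gene, 0.45 ± 0.16 (SE), and with the covariate 0.43, 0.40 and 0.36. These last 3 lay at 2.02 to 2.55 times background, at medians of 3.64 to 10.8 CPM in D2 SS.

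**Figure D5:**
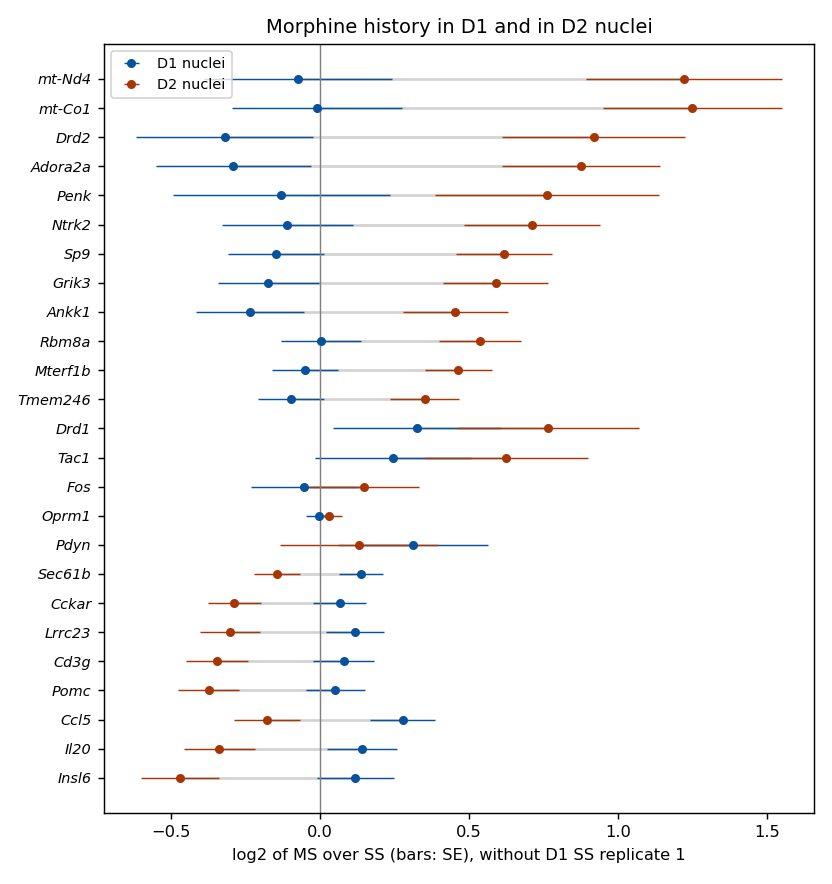
Log2 of MS over SS in D1 and D2 nuclei for named genes without D1 SS replicate 1, with bars for the SE and a grey line joining both values. Drd2 is at 0.92 in D2 and -0.32 in D1, mt-Co1 at 1.25 and -0.01, and Insl6 at -0.47 and 0.12.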

How the data were processed

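RNA of sorted nuclei was measured with a stranded total RNA kit for small inputs, per the labels' protocols. The authors deposited raw counts per gene, made with featureCounts on mm10, and used DESeq2, per the submitters' processing notes. Not given in the sources used here are the aligner, the annotation release, all versions and whether counting used strand, so values of overlapping or antisense genes are uncertain. The authors also deposited FPKM values, which served only to recover gene lengths. For 54281 of 54281 identifiers with a length, it equalled the gene span with introns in GENCODE M21 (relative tolerance 1e-06). Of 55401 identifiers, 55141 matched that release without version and 260 had no symbol.

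The counts of all 61 libraries were fitted by robust quasi-likelihood in edgeR 4.0.16 (R 4.3.3), with 1 mean per group, after filterByExpr on the groups and TMM scaling. Tests were two-sided, with Benjamini-Hochberg adjustment over all genes and a call at an adjusted p under 0.05. Each fit was repeated without D1 SS replicate 1. The common coefficient of variation was 0.231, and 0.182 without it. The procedure was tested on data simulated from a single mean profile, with changes planted in D2 MS. These had no differences in background between libraries and no outlying library, so they do not show how it handles either. Levels are TMM-scaled CPM, except the summed CPM of marker lists, which is unscaled. Background is the density of counts per length over 1464 olfactory and vomeronasal receptor genes. Library measures were compared by exact permutation of treatment within cell type. Libraries of a group differed by more than counting noise, so none were merged.

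Members and lists were chosen with earlier results of these data known. Named genes are the 8 with the smallest p per direction in the contrast, with and without D1 SS replicate 1, at a mean of at least 1 log2 CPM and 2 times background. Predicted genes (Gm, Rik, -ps, clone names) and mt-, Rpl, Rps, Olfr and Vmn genes were left out there. From each list come the 2 members with the smallest p, if under 0.05 unadjusted, and Drd1, Drd2, Adora2a, Penk, Pdyn, Tac1, Oprm1 and Fos always. Other list members were named after their values were seen. Alternatives were DESeq2 1.42.0, limma 3.58.1 (voom, with and without quality weights), other scaling and filters, 4 groups only, a background covariate, a replicate block and leaving out each library. Leaving out 2 libraries together, leaving out each library in the differences within D1 and D2, and leaving out each library from the mitochondrial share or taking it over counts above background, were added after seeing the data.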

Additional observations from a re-analysis of the deposited data

Results flagged for a closer look

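Group values of the 46 named genes and of 3 library measures were searched for a library far from the rest of its group. Of 196 group values, 57 had one, where chance gives about 1 in 20, and 35 of the 57 were D1 SS replicate 1. These genes were partly chosen on the same libraries, and the genes of 1 library are not independent.

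D1 SS replicate 1 stood apart with a scaling factor of 0.388. Its CPM was far above its group for Pde10a (10440), Ntrk2 (4065), Pde4b (3373), Grik3 (2297), Cdh13 (2156), Grip1 (2068) and Npas2 (1431). The same held for Ivns1abp (468.0), B3gat1 (404.5), Cacna2d2 (366.5), Kdm4c (292.4), Per2 (290.1), Drd2 (270.1), Drd1 (269.7), Oprm1 (186.8), Tac1 (138.6) and Gabra5 (70.36). Among lower levels it was high for Sik1 (31.49), mt-Co1 (29.97), Ndufa5 (27.94), Tmem246 (27.23), Lrrtm2 (17.62), Rbm8a (15.19), Fos (12.15) and Mterf1b (9.719). It was far below its group for Pecam1 (19.13), Aldh1l1 (17.31), Atf3 (14.78), Ifit2 (7.188), Lrrc23 (4.151), Cd3g (2.936), Oasl2 (2.531), Il20 (2.126) and Pomc (2.025).

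D1 MS replicate 2 stood apart with a background share of 36.42%. Its CPM was high for Pde10a (2062), Pdyn (181.4), Cacna2d2 (174.5), Drd1 (165.7), B3gat1 (105.0), Per2 (90.17), Tmem246 (17.66), Ndufa5 (14.93), Sik1 (14.71) and Mterf1b (7.169), and low for Ifit2 (15.15) and Pomc (4.435). D1 MS replicate 6 was high for Pde4b (842.7) and Grip1 (556.1), and D1 MS replicate 4 for Trem2 (7.617) and Foxi1 (5.373).

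Among D2 libraries, D2 SS replicate 4 had a high mitochondrial share (0.02073%) and mt-Co1 (10.29 CPM). D2 SS replicate 1 was low for Ndufa5 (5.866), D2 SS replicate 5 low for Cd3g (9.914) and D2 MS replicate 2 high for Tac1 (53.17).

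The mitochondrial share of counts differed between cell types in its response to morphine history by 0.01293 percentage points, and by 0.0126 without D1 SS replicate 1 (exact permutation p = 0.0233 and 0.0301). Neither passed after adjustment over 20 tests (0.173 each).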

How the results depend on the processing

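With all libraries, edgeR called 0 genes in the contrast under other scaling, no filter, the stricter filter, 4 groups only and the background covariate, and limma voom also called 0. DESeq2 called 5200, with 10805 genes given no adjusted p, and voom with quality weights 7. Leaving out 1 library gave 0 to 5057 calls, the latter without D1 MS replicate 2. Without D1 SS replicate 1, the quality weights called 2 genes, Scx at 1.40 and A330087D11Rik at -0.71, and the other settings 0. Both lie under background and were named after their values were seen. Within D1, leaving out 1 library gave 0 to 1 calls in edgeR (Slc17a7, without any 1 of D1 SS replicates 3 to 7), and within D2 0, an alternative chosen after seeing the data. In D1, edgeR with DESeq2 size factors called 1 gene, Slc17a7 at -2.87, and DESeq2 called 4 (Slc17a7, Ccn2, Coro6 and Grik3), all lower. In D2, DESeq2 called 1 (Gm10537 at -0.96) and the quality weights 4 (Gm42911, Cd40, Dtymk and Gm22959). The D2 count under those weights was 264 when D1 SS replicate 1 was left out, 220 of them lower, although that library is not in D2. The cause of these differences was not tested.

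At an unadjusted p under 0.05, the contrast had 10571 genes with all libraries, 2638 under the stricter filter, 6737 with 4 groups only, 2448 with the covariate and 2556 without D1 SS replicate 1. Without that library, the stricter filter gave 1052 (322 higher and 730 lower) and the quality weights 7198. Over the 11535 genes of the stricter filter, the median contrast was then -0.06, against 0.19 for them in the main fit. Their median D2 difference was -0.06 against 0.22, so both medians changed sign with the scaling. Without D1 SS replicate 1 and D1 MS replicate 2 the counts were 4810 higher and 3026 lower. With the replicate number as a block, edgeR called 0 genes (8003 higher and 3408 lower unadjusted), and 0 without D1 SS replicate 1 (1648 and 2423). Deviations from group means in 45 same-numbered pairs had a mean correlation of -0.024 (-0.718 to 0.728), with 15 over 0.1. In 338 other pairs the mean was 0.01 (-0.741 to 0.812), with 138 over 0.1. With ranges this wide, these values cannot show whether the numbers pair libraries.

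Single genes passed in DESeq2 with all libraries in 34 of 46 cases, and without D1 MS replicate 2 in 29. Signs turned in 4 genes. Gabra5 (main -0.01) had 0.154 with size factors, 0.142 in DESeq2 and 0.0 with the block, and -0.166 to 0.035 over left-out libraries. Cdh13 (main 0.14) had -0.135 with quality weights and -0.098 with the covariate. Without D1 SS replicate 1 it had -0.14, and then -0.126 with size factors or DESeq2, -0.131 unfiltered, -0.142 in voom, -0.137 with quality weights, -0.113 with 4 groups, -0.107 with the covariate and -0.148 with the block. Over left-out libraries it had -0.14 to 0.195. Pdyn (main 0.12) had -0.349 under the stricter filter and -0.418 with the covariate. Without D1 SS replicate 1 it had -0.181, and then -0.172 with size factors or DESeq2, -0.171 unfiltered, -0.383 with the stricter filter, -0.084 in voom, -0.153 with 4 groups, -0.392 with the covariate and -0.136 with the block. Over left-out libraries it had -0.181 to 0.452. Fos (main 0.46) had -0.057 under the stricter filter and -0.082 without D1 SS replicate 1 as well. Without both libraries Cdh13 had -0.16 and Gabra5 -0.18. The cause was not tested.

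The background share contrast stayed at an exact permutation p over 0.05 without D1 SS replicate 1 and with olfactory genes only (-17.6 points, exact p = 0.0996). The mitochondrial contrast was 0.0110 to 0.0147 points over left-out libraries and 0.02675 over counts above background, where exact p = 0.166. Depth was not varied, and whether depth or background limits the test of genes near background was not tested.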
